A study of Mus musculus with 7 samples.

Results

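The clustered histone genes encode the bulk of the core histones H2A, H2B, H3 and H4 and the linker histone H1. They were described in peripheral blood mononuclear cells (PBMCs), a blood fraction rich in lymphocytes and monocytes, of mice at week 8 of a study of repeated blood collection. Members were sought as protein-coding rows of the deposited gene table (mm10) whose symbol begins with Hist and a cluster number from 1 to 4. Only 8 of 45777 genes met this pattern in the symbol column, because most of the family stands there under newer symbols. The older cluster name in the symbol or the description column gave 67 genes, a choice made after the table was seen. The 67 hold 6 H1, 18 H2A, 18 H2B, 12 H3 and 13 H4 genes, and values are given for the 67 and for the 8.

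There were 7 libraries, 1 for each group, all from mice and all named as PBMCs. The control is called Non, and the labels do not say how it was handled. Blood was taken from the facial vein (FV), from the retro-orbital plexus (RP), vessels that lie behind the eyeball, or from the tail vein (TV), in each route without and with ibuprofen, an inhibitor of cyclooxygenases. The labels give no age, strain or pooling, and no group had a replicate. The spread behind each p-value is thus only how the ibuprofen difference varies between routes in these single libraries, which may be technical. All 12 B cell, 15 T cell and 10 classical monocyte markers examined were detected in every library, as were all 16 platelet markers, and adult globins took 46.3% to 70.9% of the counts. Total counts ran from 47903611 to 63801032.

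Clustered histone genes have an unusual messenger RNA. Most are copied during DNA replication, and their transcripts normally end not in a poly(A) tail but just after a short stem-loop, which the protein SLBP binds and which directs cleavage, export and decay. Polyadenylated copies of some of these genes are known from cells that have left the cell cycle, and the libraries here came from a kit that selects poly(A) RNA. In human platelets, HIST1H2AC, an H2A gene of the main cluster, is known as a platelet-associated transcript. In bulk RNA, fewer cells of a type and less RNA per cell cannot be told apart.

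The stem-loop was looked for in the GENCODE M21 transcript models of all 67 genes on the transcript's strand as a pattern of 16 bases, GGC, any base, CTT, any base, T, any base, AG, any base and GCC. It was found in 44 of the 67 genes, or 46 of their 72 protein-coding transcripts (63.9%), against 10 of the other 58725 protein-coding transcripts in that annotation (0.017%). The 5 sites shown here, with the stem and loop in capitals and the flanks in lower case, belong to the highest H1, H2A and H4 members, the highest H2B member with a site and a second H4 gene, and show the forms that tell the H4 genes from the other classes (GRCm38, the assembly of mm10):
H1f2, chr13:23739507-23739532, plus strand: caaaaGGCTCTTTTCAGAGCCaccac
H2ac18, chr3:96246027-96246052, plus strand: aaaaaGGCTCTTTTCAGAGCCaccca
H2bc8, chr13:23571838-23571863, plus strand: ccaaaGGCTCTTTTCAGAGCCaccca
Hist1h4n, chr13:21831793-21831818, minus strand: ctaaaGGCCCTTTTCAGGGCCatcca
H4c9, chr13:22040961-22040986, minus strand: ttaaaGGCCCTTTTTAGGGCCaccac

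All 10 H4 sites had the stem that begins GGCCC, and all sites of the other classes had the stem that begins GGCTC. The form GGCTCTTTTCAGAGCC was the most frequent, in 26 genes. In 22 genes the model ended within 100 bases after the stem-loop, and in the other 22 at least 1 model ran on for 100 bases or more, as in H1f2 with 840 bases. Of the 23 genes without the pattern, 15 have models that stop at the stop codon, so the window searched ends before a stem-loop could stand there. The deposited gene rows follow the short form: of the 44 genes with a site, 41 have a row that ends within 10 bases after the stem-loop. Reads from a longer tail would lie outside such a row, and how these were counted is not given in the sources used here. Rows longer than 1000 bases belonged to 5 of the genes that passed the expression filter, H2bc4, H2bc6, H2bc21, Hist1h2bq and Hist1h2br.

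Of the 67 genes, 21 reached a mean of at least 1 CPM, the counts scaled by TMM (trimmed mean of M values) to a common library size. They were 1 of 6 H1, 3 of 18 H2A, 12 of 18 H2B, 0 of 12 H3 and 5 of 13 H4 genes, and 4 of the 8 genes found by symbol. On Non and the RP libraries alone, 16 of the 21 would have reached that mean. The other 5, H2c8, H2bc15, H2bc9, H2bc18 and H4c3, passed through the FV and TV libraries and so had to be higher there, which limits every count and median over the 21. Sums over the 67 used no such filter. These 21 held 91.8% to 95.9% of all clustered histone counts. Of the other 46, the highest mean was 0.815 CPM, and 1 gene, H2ac1, had no count in any library, below the floor of 3 counts (0.0383 to 0.0916 CPM).

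**Figure D1:**
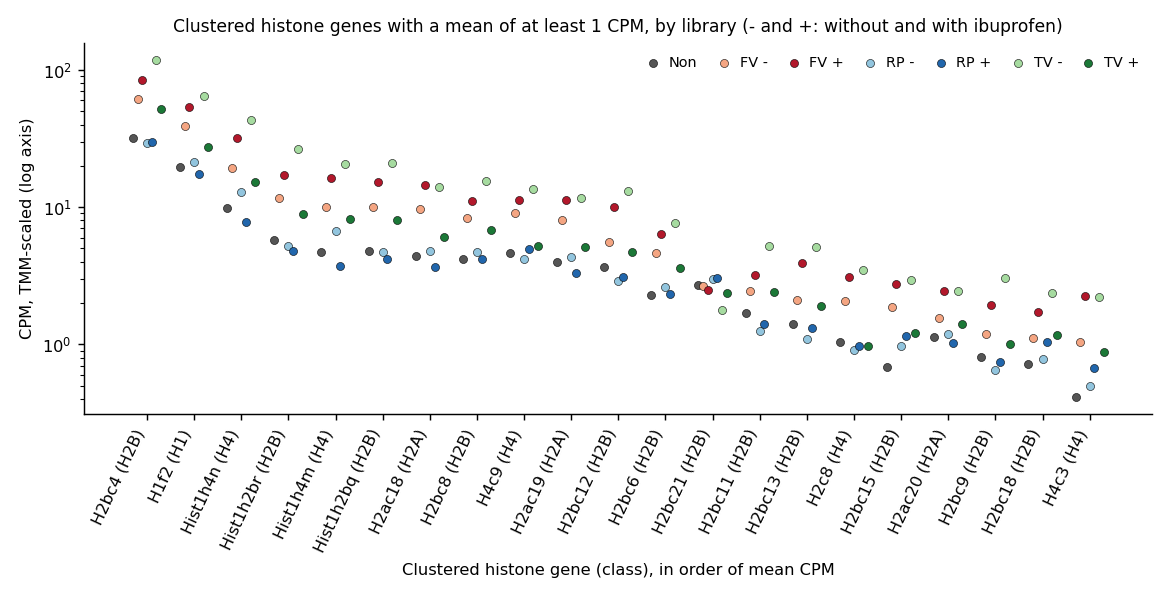
CPM after TMM scaling (log axis) of the 21 clustered histone genes that averaged 1 CPM or more, 1 point for each of the 7 libraries, in order of mean CPM. For 20 genes the FV with ibuprofen and TV without ibuprofen points lie above Non and both RP libraries, and H2bc21 is the exception.

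H2bc4 (older name Hist1h2bc; chromosome 13, 23684199 to 23692480) held 24.3% to 29.7% of the counts of the family, more than any other member. In this and the later lists the first value of a route is without ibuprofen and the value after "then" with it. This H2B gene had 31.8 CPM (Non), 61.1 then 84.7 CPM (FV), 29.3 then 29.7 CPM (RP) and 119 then 51.5 CPM (TV). Both RP libraries were just below Non and the other 4 above it. H1f2 (Hist1h1c; chromosome 13, 23738807 to 23739531), which encodes the linker histone H1.2, had 19.5 CPM (Non), 39.0 then 53.3 CPM (FV), 21.4 then 17.5 CPM (RP) and 64.2 then 27.3 CPM (TV). It held 94.7% to 97.5% of the H1 counts, while H1f3 had a mean of 0.791 CPM, H1f4 0.327 CPM, H1f5 0.105 CPM and H1f1 0.0391 CPM. Linker histones bind the DNA that enters and leaves the nucleosome.

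The H4 class was led by a pair of neighbouring genes found by symbol. Hist1h4n (chromosome 13, 21831792 to 21832197) had 9.85 CPM (Non), 19.4 then 31.7 CPM (FV), 13 then 7.74 CPM (RP) and 43.0 then 15.2 CPM (TV). Hist1h4m (chromosome 13, 21811746 to 21812150) had 4.75 CPM (Non), 10.1 then 16.2 CPM (FV), 6.76 then 3.73 CPM (RP) and 20.6 then 8.16 CPM (TV). RP without ibuprofen was above Non for both and RP with ibuprofen below it. The coding sequences of Hist1h4m and Hist1h4n are identical, so reads may be shared between the rows and each gene's own level is uncertain. H4c9 followed with 4.65 CPM (Non), 9.06 then 11.3 CPM (FV), 4.18 then 4.97 CPM (RP) and 13.6 then 5.21 CPM (TV). H2c8, whose older name Hist1h4h makes it an H4 gene despite its symbol in the table, had a mean of 1.80 CPM and H4c3 a mean of 1.14 CPM.

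The same stretch of chromosome 13 holds the other 6 genes found by symbol. Hist1h2br (21833743 to 21837530) had 5.75 CPM (Non), 11.6 then 17.1 CPM (FV), 5.18 then 4.77 CPM (RP) and 26.4 then 8.91 CPM (TV). Hist1h2bq (21806412 to 21810199) had 4.81 CPM (Non), 10.1 then 15.3 CPM (FV), 4.71 then 4.18 CPM (RP) and 20.9 then 8.10 CPM (TV). These H2B genes also share an identical coding sequence, and both had RP values below Non. The remaining 4 stayed under 1 CPM, with means of 0.670 CPM for Hist1h2bp, 0.259 CPM for Hist1h2ap, 0.239 CPM for Hist1h2ao and 0.0974 CPM for Hist1h2an. Hist1h2ao and Hist1h2ap, both H2A genes, are identical over their coding sequence as well.

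In the duplicated stretch, Hist1h4m and Hist1h4n kept the same order of libraries, although Hist1h4n stood well above Hist1h4m in each. Hist1h2bq and Hist1h2br also shared an order. Hist1h2ao and Hist1h2ap, at low counts, did not, being highest in TV without ibuprofen (0.458 CPM) and FV with ibuprofen (0.474 CPM). Reads may be shared within a pair, and H1f2, outside the stretch, had the same order as Hist1h4n and Hist1h4m. Whether the promoters bear on that order was not tested. The promoters shown here come from the RefSeq promoter table (GRCm38.p6, 250 bases before to 50 after the gene start), which matched 62 of the 67 genes. Capitals mark CCAAT or its reverse complement ATTGG, and TATAAA or TTTATA:
Hist1h2bq, chr13:21810150-21810449, minus strand: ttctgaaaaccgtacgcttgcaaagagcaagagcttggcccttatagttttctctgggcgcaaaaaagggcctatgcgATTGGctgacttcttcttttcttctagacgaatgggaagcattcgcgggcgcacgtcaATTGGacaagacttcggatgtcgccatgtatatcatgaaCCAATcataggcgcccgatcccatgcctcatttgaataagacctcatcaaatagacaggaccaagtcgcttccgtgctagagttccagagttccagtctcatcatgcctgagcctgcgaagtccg
Hist1h4m, chr13:21811496-21811795, plus strand: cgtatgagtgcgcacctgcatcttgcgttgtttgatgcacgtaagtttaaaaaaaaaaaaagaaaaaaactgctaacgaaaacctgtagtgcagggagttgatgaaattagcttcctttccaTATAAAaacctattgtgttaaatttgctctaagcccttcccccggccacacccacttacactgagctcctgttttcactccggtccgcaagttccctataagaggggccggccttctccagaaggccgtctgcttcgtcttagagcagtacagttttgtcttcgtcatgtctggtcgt

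The promoter of Hist1h2br equals that of Hist1h2bq over all 300 bases, and that of Hist1h4n, moved by 1 base, differs from that of Hist1h4m at 1 of 299 bases. The octamer ATTTGCAT, or its reverse complement ATGCAAAT, is known as an element of H2B promoters. It was found in 43.8% of the H2B and 38.9% of the H2A promoters, in none of the H1, H3 and H4 promoters, and in 1.97% of all 27025 genes with a promoter. CCAAT on either strand was found in all H1, H2A, H2B and H3 promoters, in 25.0% of the H4 promoters and in 41.1% of all genes. TATAAA on either strand was found in 56.5% of the family and 15.7% of all genes. No octamer stands in the promoters shown, and the motifs marked there do not overlap. In the 19 matched genes with at least 1 CPM the octamer share was 26.3% and in the 43 below it 20.9%.

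Among the H2A genes, H2ac18 and H2ac19 on chromosome 3 were highest. H2ac18 (Hist2h2aa1; 96245497 to 96246052) had 4.38 CPM (Non), 9.72 then 14.4 CPM (FV), 4.78 then 3.69 CPM (RP) and 14 then 6.09 CPM (TV). It was 1 of 3 tested members, with H2ac20 and H4c3, whose highest library was FV with ibuprofen. The coding sequences of H2ac18 and H2ac19 are identical over 393 bases, so reads may be shared between them and they are not independent members. H2ac19 and H2ac20 had means of 6.81 and 1.61 CPM, H2aw 0.714 CPM and H2ac6 0.458 CPM. H2ac6 (Hist1h2ac) is the mouse gene whose older name matches that of the human platelet-associated transcript, and it had 0.250 CPM (Non), 0.393 then 0.551 CPM (FV), 0.128 then 0.255 CPM (RP) and 1.34 then 0.286 CPM (TV). Those values rest on 10 to 44 counts in a library. The H2ac6 row ends 4 bases after the stem-loop, while its transcript model runs on for 2010 bases. Reads from such a longer form may thus be missing from these values. No H3 gene reached 1 CPM. The highest means in that class were 0.347 CPM for H3c14, 0.342 CPM for H3c11, 0.310 CPM for H3c4, 0.269 CPM for H3c15 and 0.140 CPM for H3c13.

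H2B genes outnumbered the others among the 21. After H2bc4 and the Hist1h2bq and Hist1h2br pair came H2bc8, with 4.18 CPM (Non), 8.36 then 11.1 CPM (FV), 4.71 then 4.18 CPM (RP) and 15.6 then 6.84 CPM (TV). H2bc12 had 3.68 CPM (Non), 5.55 then 9.99 CPM (FV), 2.91 then 3.08 CPM (RP) and 13.2 then 4.69 CPM (TV). H2bc21 (Hist2h2be; chromosome 3, 96221072 to 96223738) went the other way, with 2.72 CPM (Non), 2.68 then 2.49 CPM (FV), 3.01 then 3.04 CPM (RP) and 1.77 then 2.35 CPM (TV). Its lowest library was TV without ibuprofen, the highest library of 17 other tested members.

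Levels between genes are compared per length on the deposited TPM scale. Many H2A and H2B genes start back to back on opposite strands, and 12 such pairs lay 175 to 305 bases apart in GENCODE M21. In 10 of them the H2B gene had the higher mean TPM, in 1 H2A was higher, and in 1 the H2A gene, H2ac1, was at 0. The ratio of H2B to H2A over the other 11 pairs had a median of 21.3. It was highest for H2bc4 over H2ac6, with mean TPM of 67.9 and 0.691, and lowest for H2bc21 over H2ac20, with mean TPM of 0.879 and 2.98. The rows differ in extent. That of H2bc4 spans 8282 bases, whereas that of H2ac6 ends 4 bases after the stem-loop and leaves out 2010 bases of the transcript model. How far such differences shift the ratios was not tested. Some rows overlap predicted genes on the other strand, as at H2ac18, H2ac19, H2ac20 and H2bc18. The use of strand in counting is not stated, so their counts are uncertain. H2ac18 and H2bc18 also overlap predicted genes on the same strand, and H1f4 and H2bc6 overlap each other there. Counts of these genes are uncertain whatever the use of strand.

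Summed over the 67 genes, the level was 118 CPM (Non), 224 then 320 CPM (FV), 120 then 110 CPM (RP) and 419 then 173 CPM (TV). The 95% Poisson intervals, which cover counting error only, ran from 115 to 121 CPM in Non and from 118 to 123 CPM in RP without ibuprofen, so these overlapped. In TV without ibuprofen the interval ran from 412 to 426 CPM and in FV with ibuprofen from 315 to 324 CPM. For the 8 genes found by symbol the sums were 26.0 CPM (Non), 52.2 then 82.2 CPM (FV), 30.3 then 21.5 CPM (RP) and 114 then 41.3 CPM (TV). Both sums had the same order, lowest in RP with ibuprofen, followed by Non, untreated RP, treated TV, untreated FV and treated FV, and highest in TV without ibuprofen.

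**Figure D2:**
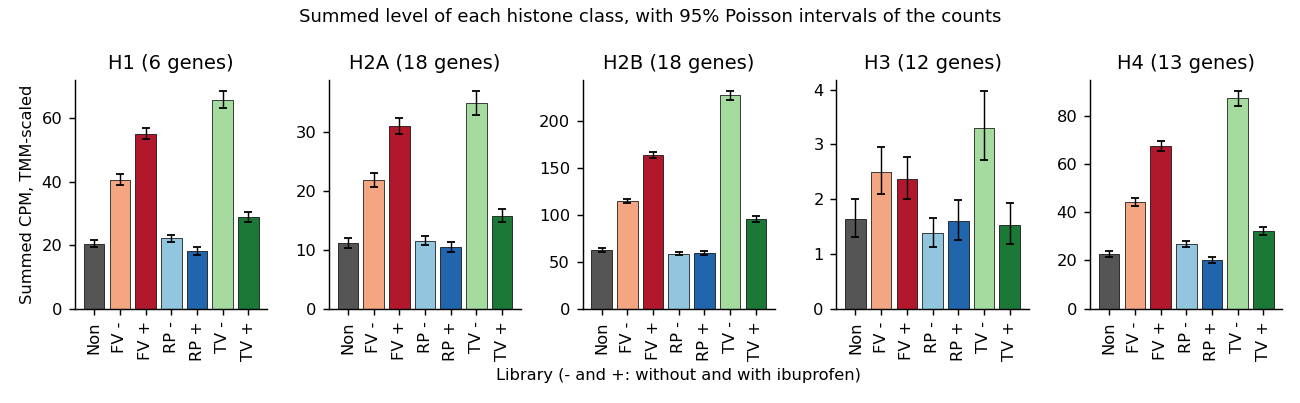
Summed CPM after TMM scaling of each histone class in the 7 libraries, with bars from 0 and error bars for the 95% Poisson interval of the summed counts. H2B had the largest sums, up to 227 CPM in TV without ibuprofen, and H3 the smallest, at most 3.30 CPM.

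H2B genes made up 48.6% to 54.9% of the clustered histone counts, H4 18.4% to 22.3%, H1 15.7% to 18.3%, H2A 8.37% to 9.77% and H3 0.737% to 1.45%. These shares are not scaled for length, and the 5 tested rows over 1000 bases are all of H2B genes. On TPM the H2B sum was still largest but nearer to H4, at 270 beside 208 in FV with ibuprofen and 86.9 beside 72.1 in RP without it. On CPM against Non, the H2B sum was 1.84- then 2.63-fold (FV), 0.942- then 0.952-fold (RP) and 3.66- then 1.53-fold (TV). The H4 sum was 1.97- then 3.01-fold (FV), 1.19- then 0.897-fold (RP) and 3.88- then 1.43-fold (TV). H1 and H2A stood at 1.99- and 1.97-fold in FV without ibuprofen and at 3.22- and 3.15-fold in TV without ibuprofen. The H3 sum rested on 69 to 154 counts and was at most 2.03-fold, in TV without ibuprofen.

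The order of libraries depended on the scale. TMM scaling set the median gene near Non in every library, whereas on the deposited TPM the median of the 11804 genes tested lay at -1.25 (log2) in TV without ibuprofen and at 0.44 in FV with it. On TPM the sum of the 67 genes was 182 (Non), 372 then 647 (FV), 217 then 146 (RP) and 281 then 190 (TV). FV with ibuprofen was then highest, FV without ibuprofen stood above TV without it, and TV with ibuprofen below RP without it. TV without ibuprofen was the highest library for 17 of the 21 members on TMM-scaled CPM (17.6% of all genes) and for 0 of 21 on TPM (0.169% of all genes). FV libraries both stood above Non and both RP libraries in 20 of 21 members on CPM (30.7% of all genes) and in 19 of 21 on TPM (39.6%). All 4 FV and TV libraries did so in 19 of 21 on CPM (10.9%), in 7 of 21 on CPM by total count alone (1.05%) and in 3 of 21 on TPM (0.534%).

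**Figure D3:**
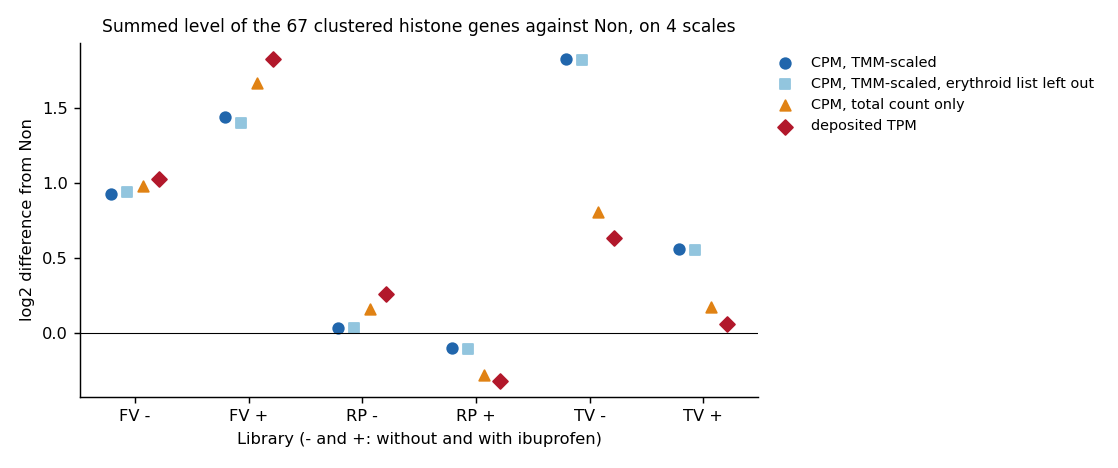
Log2 difference from Non of the summed level of the 67 genes in the 6 collected libraries, on 4 scales. FV values lie at 0.93 to 1.83 and RP values at -0.32 to 0.26 on every scale, while TV without ibuprofen moves from 1.83 on TMM-scaled CPM to 0.63 on TPM.

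The first question was how collection without ibuprofen compared with the control, Non. On TMM-scaled CPM, 8 of the 21 members were at least 2-fold above Non in FV without ibuprofen (6.43% of all genes), 0 in RP (0.661%) and 20 in TV (8.63%). None was at least 2-fold lower in FV (3.02%), RP (0.746%) or TV (3.73%). With ibuprofen, 19 were at least 2-fold above Non in FV (5.7%), 0 in RP (0.534%) and 1 in TV (0.94%). That 1 was H4c3, which the filter kept for its high libraries. With ibuprofen none was at least 2-fold lower (1.07%, 1.05% and 0.669% in that order). Hist1h2br and Hist1h4m, for instance, stood at log2 differences of 1.00 and 1.08 in FV and of 2.19 and 2.11 in TV, against -0.15 and 0.50 in RP. Each such pair is 1 library beside 1 other, without any check by replicates. The summed level differed from Non by 0.93 in FV, 0.03 in RP and 1.83 in TV (log2), a mean of 0.93 ± 0.90 (SD over 3 routes), and for the 8 genes by 1.01, 0.22 and 2.13, a mean of 1.12 ± 0.96.

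In edgeR's quasi-likelihood fit of all 7 libraries, 20 of the 21 members were higher and H2bc21 lower, with a median log2 difference of 0.94 against -0.01 over all genes. The H2B gene H2bc15 stood at 1.40 (standard error 0.63), H4c3 at 1.41 (0.78), Hist1h4m at 1.30 (0.57), H2bc8 at 1.06 (0.45), H1f2 at 0.99 (0.45) and H2bc4 at 0.94 (0.46). H2bc15 and H4c3 averaged 0.936 and 0.525 CPM on Non and the RP libraries. Both thus passed the filter only through the FV and TV libraries and had to be higher there. None of the 21 passed an adjusted p of 0.05, where 1 of 11804 genes did (0.00847%), and none had an unadjusted p under 0.05, where 7.6% of all genes did. The smallest adjusted p of a member was 0.633 by edgeR, and DESeq2 and limma-voom also called 0 members, with 17 and 1 of all genes. Without FV without ibuprofen, 8 of 21 passed when 347 of all genes did, and without FV with ibuprofen 2 of 20, Hist1h4m and Hist1h4n, when 113 did. Without TV without ibuprofen the median was 0.42 with 0 passing.

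The routes were compared in the 6 collected libraries, with ibuprofen as a second term. FV against RP gave a median log2 difference of 1.32 over the 21 members, against 0.03 over all genes, with 20 higher. H2ac18 had the smallest p, at 1.56 (standard error 0.40, adjusted p 0.108 by edgeR), followed by H2ac19, of identical coding sequence, at 1.38 (0.38, adjusted p 0.116) and Hist1h2bq at 1.56 (0.44, adjusted p 0.120). H2bc4 stood at 1.32 (0.39), H1f2 at 1.29 (0.37) and Hist1h4n at 1.43 (0.49). At an unadjusted p under 0.05, 15 of 21 were higher, where 16.2% of all genes were. None passed the adjusted test, where 13 genes (0.11%) did. DESeq2 called 8 of the 21 and 1076 of all genes, and limma-voom 0 and 188. Without FV without ibuprofen, 18 of 21 passed in edgeR and 1214 of all genes, and without FV with ibuprofen the median was 0.57 and 0 passed.

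TV against RP gave a median of 1.28 against -0.04 over all genes, again with H2bc21 as the only lower member, at -0.55 (standard error 0.27). Hist1h2br stood at 1.75 (0.48), Hist1h2bq at 1.65 (0.44), H2bc4 at 1.48 (0.39), H2bc11 at 1.47 (0.42) and H1f2 at 1.18 (0.38). At an unadjusted p under 0.05, 14 of 21 were higher, where 9.05% of all genes were, and the smallest adjusted p was 0.379 by edgeR. None passed the adjusted test, nor did any of the 11774 genes (0%). DESeq2 called H2bc4 and H1f2 with 189 of all genes, and limma-voom 0 of all genes. Without either of the FV libraries 12 members passed in edgeR, when 465 or 457 of all genes did, and without TV without ibuprofen the median was 0.40 with 0 passing. In TV against FV the members lay on both sides, 10 higher and 11 lower, with a median of -0.03 against -0.07 over all genes and a smallest adjusted p of 0.741 by edgeR. No gene passed there (0%), and 0 members had an unadjusted p under 0.05, where 10.8% of all genes did. DESeq2 and limma-voom called 0 members, with 318 and 7 of all genes. That median was -0.65 without FV without ibuprofen, 0.68 without FV with ibuprofen, -0.75 without TV without ibuprofen and 0.75 without TV with ibuprofen.

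With ibuprofen the members were higher in FV and lower in TV. In FV 20 of 21 were higher with it (55.8% of all genes), and in TV 20 of 21 were lower (46.9%). H2bc21 was the exception in both, lower in FV (44.2%) and higher in TV (53%). The same 20 did both, as did 22.4% of all genes. In TV 19 of 21 were at least 2-fold lower (6.35%), and in FV 1 was at least 2-fold higher (1.5%). That was H4c3, at 1.05 then 2.25 CPM, whose mean of 1.14 CPM passed the filter through this library and TV without ibuprofen (2.20 CPM) and was 0.702 CPM without them. None was 2-fold lower in FV (1.6%) or 2-fold higher in TV (3.47%). In RP 10 were lower (51.8%) and 11 higher (48.2%), and 0 reached 2-fold in either direction (1.49% lower, 0.906% higher). The summed level differed with ibuprofen by 0.51 in FV, -0.14 in RP and -1.27 in TV (log2), a mean of -0.30 ± 0.90 (SD over 3 routes), and for the 8 genes by 0.66, -0.50 and -1.46, a mean of -0.43 ± 1.06. On TPM the differences were 0.80, -0.58 and -0.57. The difference between routes was not tested, since each route has 1 pair of libraries. It forms the residual of the additive fits, so opposite signs in FV and TV widen the standard errors of these members. A member that does not pass there is therefore not shown to be unchanged.

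**Figure D4:**
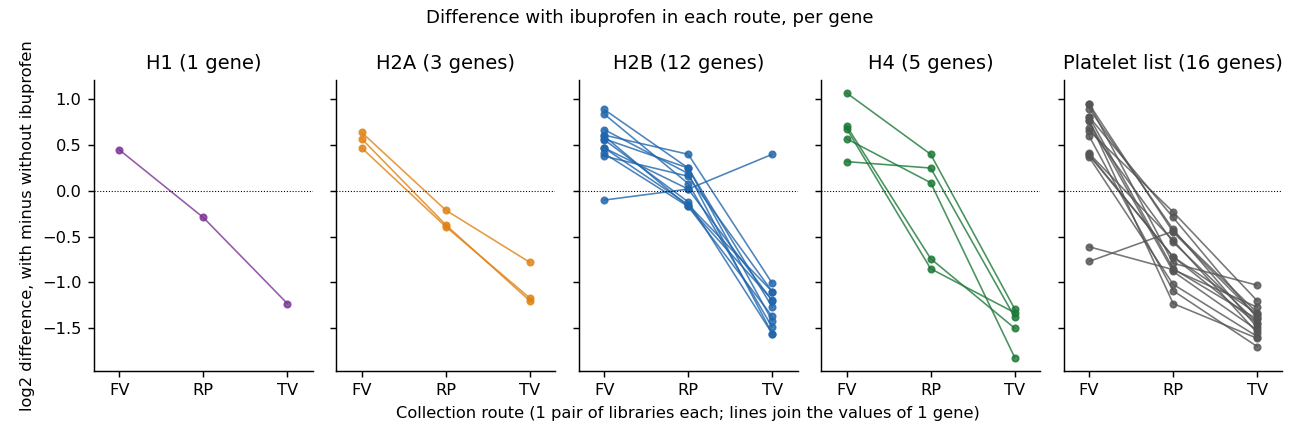
Log2 difference with minus without ibuprofen in FV, RP and TV for the tested H1, H2A, H2B and H4 genes and for the 16 platelet markers, 1 line for each gene. All histone lines but that of H2bc21 run from above 0 in FV to below 0 in TV.

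Hist1h4n differed with ibuprofen by 0.71 (FV), -0.74 (RP) and -1.5 (TV), and Hist1h4m by 0.68, -0.85 and -1.33. H4c9, of the same class, differed by 0.32, 0.25 and -1.38. H2bc4 differed by 0.47, 0.02 and -1.20, H1f2 by 0.45, -0.29 and -1.23, and H2bc21 by -0.10, 0.02 and 0.40. In the fit over the 3 routes the median of the 21 was -0.25 against 0.01 over all genes, with 3 higher and 18 lower. Hist1h4n stood at -0.52 (standard error 0.40), Hist1h4m at -0.50 (0.38), H1f2 at -0.35 (0.31) and H2bc4 at -0.23 (0.32). No member passed, nor did any of the 11774 genes (0%), and 0 members had an unadjusted p under 0.05, where 10.2% of all genes did. The smallest adjusted p of a member was 0.663 by edgeR, and DESeq2 and limma-voom called 0 members, with 110 and 2 of all genes. Without either FV library, 2 of the members passed, Hist1h4m and Hist1h4n, when 232 or 228 of all genes did. Without TV without ibuprofen the median was 0.23, and without TV with ibuprofen 0.24.

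Genes that work with the clustered histones were examined from 3 lists, and none of their members passed an adjusted p of 0.05 in any of the 5 comparisons by edgeR. Of 11 variant histone genes, most of which give transcripts with poly(A) tails outside S phase, 9 were tested. H3f3a, which encodes the variant H3.3, had 457 CPM (Non), 449 then 553 CPM (FV), 439 then 427 CPM (RP) and 847 then 503 CPM (TV). H3f3b, which encodes the same protein, stood at 183, 290, 209, 218, 203, 220 and 176 CPM in the same order. H2afz, for the variant H2A.Z, ran from 49.7 to 94.5 CPM, highest in FV with ibuprofen, and Macroh2a1 from 95.9 to 110 CPM. In FV against RP 8 of 9 were higher, with a median of 0.09, and 2 had an unadjusted p under 0.05, where 16.2% of all genes were higher at that level.

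Of 16 genes for the processing and decay of histone mRNA, 15 were tested, and 0 had an unadjusted p under 0.05 in any comparison. Srrt, a cap-binding cofactor, ran from 52.4 to 75.8 CPM, the scaffold Sympk from 43.8 to 47.0 CPM, the decay helicase Upf1 from 28.5 to 38.1 CPM and the cleavage nuclease Cpsf3 from 20.7 to 29.7 CPM. Slbp, the stem-loop binding protein, named after its values were seen, ran from 12.3 to 15.6 CPM. Their median difference from Non lay between -0.34, in TV without ibuprofen, and 0.01.

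Of 26 S phase and cell cycle genes, 21 were tested. Mki67, the Ki-67 antigen of dividing cells, had 98.1 CPM (Non), 46.4 then 43.3 CPM (FV), 51.7 then 54.1 CPM (RP) and 119 then 84.7 CPM (TV). TV without ibuprofen was the highest library for Mki67 as for the histone sum, and the FV libraries, where that sum was above Non, were the lowest for Mki67. Ccna2, Ccnb2 and Birc5, cell cycle genes named after their values were seen, were also highest in TV without ibuprofen, at 25.2, 12.3 and 3.67 CPM against 9.97, 7.24 and 2.66 CPM in Non. Other cell cycle genes of the list were highest elsewhere. Top2a was highest in FV without ibuprofen (4 CPM), Ccnb1 in Non (1.38 CPM) and Cdk1 in FV with ibuprofen (0.52 CPM). Ccnb1 and Cdk1 had means of 0.913 and 0.296 CPM and were not tested. The replication clamp Pcna ran from 19.4 to 24.9 CPM, and the helicase subunits Mcm4 and Mcm6 from 13.6 to 20.6 and from 12.5 to 20.4 CPM. Both subunits were lowest in TV without ibuprofen, as were Mcm2, Mcm3, Mcm5, Rrm1 and Cdt1, also named after their values were seen. Mcm7 was lowest in FV without ibuprofen. The list's median difference from Non was -0.30 then -0.18 (FV), -0.14 then -0.04 (RP) and -0.24 then 0.03 (TV). At an unadjusted p under 0.05, 5 of 21 were higher in TV against RP (9.05% of all genes), 4 were higher in TV against FV (4.66%), and 1 was higher (16.2%) and 2 lower (8.5%) in FV against RP. In TV against FV, Ccna2 stood at 1.77 (standard error 0.26) and Mki67 at 1.17 (0.20), both with an adjusted p of 0.248 by edgeR.

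**Figure D5:**
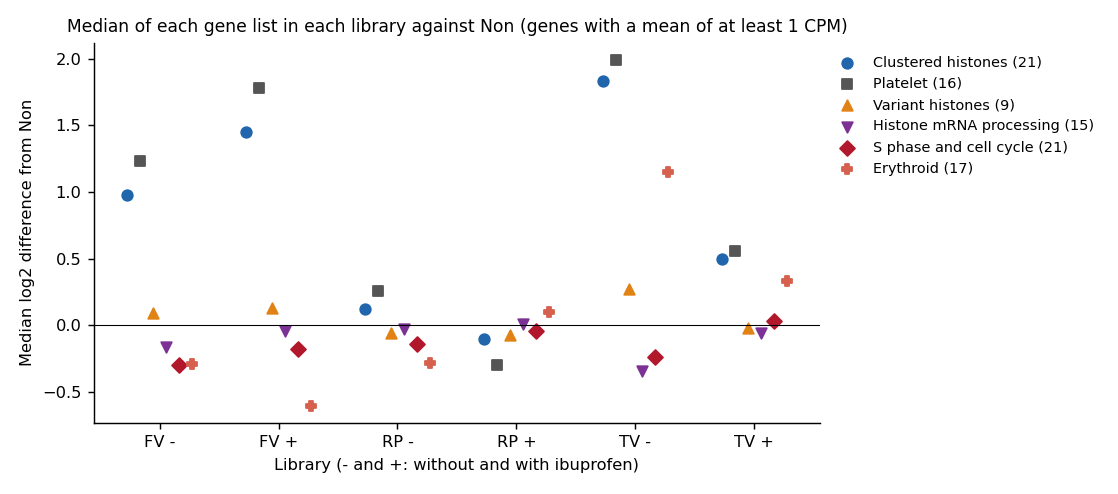
Median log2 difference from Non of the 21 clustered histone genes and of 5 other lists in the 6 collected libraries, over genes that averaged 1 CPM or more. Histone, platelet and erythroid medians are highest in TV without ibuprofen, at 1.83, 1.99 and 1.15, and the variant histone, processing and S phase medians lie between -0.34 and 0.27.

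On TMM-scaled CPM the summed platelet markers followed the same order of libraries as the histone sum. The summed level of the 16 markers was 1570 CPM (Non), 3990 then 5040 CPM (FV), 1930 then 1210 CPM (RP) and 6140 then 2350 CPM (TV). Itga2b, a platelet integrin chain, had 269 CPM (Non), 616 then 821 CPM (FV), 305 then 209 CPM (RP) and 1130 then 387 CPM (TV). All 16 were higher in FV against RP and in TV against RP, with medians of 1.58 and 1.40, and none passed the adjusted test. The summed erythroid list ran from 362000 CPM in FV with ibuprofen to 1320000 CPM in TV without ibuprofen, where TMM scaling gave the smallest effective library size. Neutrophil and classical monocyte lists were highest in FV without ibuprofen, at 1300 and 7250 CPM. All 10 classical monocyte markers were higher in FV against RP, with a median of 1.46, and 9 in TV against RP, with a median of 0.95. In FV against RP 2 of these monocyte markers passed the adjusted test, where 0.11% of all genes did. The 12 B cell markers summed to 984 CPM (Non), 373 then 633 CPM (FV), 1220 then 1170 CPM (RP) and 626 then 962 CPM (TV). The 15 T cell markers summed to 1010 CPM (Non), 575 then 803 CPM (FV), 832 then 1230 CPM (RP) and 476 then 1100 CPM (TV). Both lymphocyte sums were thus below Non in the FV libraries and in TV without ibuprofen, where the histone sum was above it. In TV with ibuprofen the histone sum was above Non too, with the T cell sum above Non and the B cell sum just below it. At an unadjusted p under 0.05, all 12 B cell and 5 of 15 T cell markers were lower in FV against RP (8.5% of all genes), and 7 and 3 in TV against RP (4.02%), with 0 passing the adjusted test. The part of these cells in the histone values was not tested.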

How the data were processed

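Per the labels' protocols, an RNeasy kit was used for the RNA and a TruSeq stranded mRNA kit for the libraries. Trimmomatic 0.38, HISAT2 2.1.0 and mm10 are named, without roles, in the submitters' processing notes; for the counting tool, the annotation and strand use, the sources used here give nothing. The authors deposited read counts per gene, whole numbers without scaling. The deposited FPKM columns were left aside. The deposited TPM, scaled for length and depth, served as an alternative scale and to compare genes.

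Counts were scaled with TMM (factors 0.553 to 1.31) in edgeR 4.0.16 under R 4.3.3. Genes that averaged 1 CPM or more over the fitted libraries were tested with edgeR's quasi-likelihood test (glmQLFit, glmQLFTest) and Benjamini-Hochberg adjustment over all genes at 0.05. Route and ibuprofen were additive terms in the 6 collected libraries, with 2 residual degrees of freedom. These come from how the ibuprofen difference varied between routes. Collection without ibuprofen was set against Non in a fit of the 7 libraries that left no residual for Non. Standard errors were derived from the log2 difference and the square root of F. Single libraries were set side by side untested at 2-fold (log2 CPM, prior count 2). Sums carry 95% exact Poisson intervals. DESeq2 1.42.0 and limma 3.58.1 were alternatives. The edgeR fit was run on simulated data with the same spread for all genes and no difference between routes. That run does not cover ibuprofen differences that vary between routes, as seen here. Among the 21 pairs of libraries the lowest chi-square per degree of freedom was 28.4, so none was counted as a repeat.

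Named members were the 5 highest by mean CPM in each class and the 3 smallest p-values of each comparison, with the 4 highest genes of each related list; H2bc21 and H2ac6, and genes given as group exceptions, were also described. The members and lists were chosen with earlier results of these data known.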

Additional observations from a re-analysis of the deposited data

Results flagged for a closer look

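The difference of the summed clustered histone level with ibuprofen had opposite signs in different routes, at 0.51 (log2) in FV and -1.27 in TV. Each route has 1 pair of libraries, and the difference between routes was not tested.

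A row outside the protein-coding members, Hist1h2al, was above Non in the libraries where the members were. It is listed as a transcribed pseudogene (chromosome 13, 51200084 to 51203066) and, without then with ibuprofen in each route, had 13 CPM (Non), 24.5 then 41.9 CPM (FV), 13.8 then 12.4 CPM (RP) and 43.6 then 17.4 CPM (TV). Reads shared between this row and H2A or other histone genes were not tested.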

How the results depend on the processing

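No paired analysis was possible because each group has 1 library and the labels give no pairing. With members taken from the symbol column only, the counts of members called stayed at 0 in all 5 comparisons. That choice was made after seeing the data. DESeq2 called 2 members for TV against RP and 8 for FV against RP. Leaving out each library in turn gave 0 to 2 members for ibuprofen, 0 to 12 for TV against RP, 0 to 18 for FV against RP, 0 for TV against FV, and 0 to 8 for collection without ibuprofen against Non. These fits rest on 1 residual degree of freedom where a collected library is left out, and the cause of the added calls was not tested. The mean difference of the summed level with ibuprofen, -0.30, ran from -0.70 to 0.19 with each route left out, the latter without TV. Against Non it ran from 0.48 to 1.38. By total count alone the means were -0.13 and 0.65, and by TPM -0.11 and 0.64, within 1 SD over routes. H2bc4 with ibuprofen lay between -0.59 and 0.25 and H1f2 between -0.76 and 0.09 over the libraries left out, both above 0 without TV without or with ibuprofen. No other named difference that was recomputed changed sign. At the depth here, 46 of 67 members lay below 1 CPM, and differences in those genes were not tested in the reported fit.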
